A study of Mus musculus with 2 samples.

Results

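The genes of the Myc, Max and Mxd network were compared between granulocytes and monocytes sorted from mouse bone marrow. The 10 genes were chosen by name: every gene probe whose array annotation reads Myc, Mycn, Mycl1 (now Mycl), Max, Mxd1, Mxd3, Mxd4, Mxi1, Mnt or Mlx was taken, which gave 18 probes of the 41089 with a value. All 10 genes were among the 15429 genes above background on at least 1 array, out of 19487 genes with a named probe. Of the 18 probes, 17 were well above background on both arrays. The other, the second Mycn probe, was above it on neither.

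Both samples came from wild type male C57BL/6 mice, and no treatment is named. The sources used here give neither age, nor the surface markers of the sorts, nor how many mice were used. Total RNA of each cell type, 0.5 µg, was amplified, labelled with the dye Cy3 and hybridised to 1 one-colour Agilent array per cell type. With 1 array per group no spread between samples can be estimated, no test was made, and the cell type cannot be told apart from the sample and its array. Genes were therefore counted by the size of their difference, 4-fold or more, and also 2-fold or more. In bulk samples like these, fewer cells that express a gene and less RNA per cell cannot be told apart.

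The network is a set of transcription factors that carry a basic helix-loop-helix zipper and bind DNA in pairs. Myc and its relatives Mycn and Mycl pair with Max and activate genes of growth and division. The Mxd proteins, Mxi1 (also a member of the Mxd family) and Mnt also pair with Max, recruit Sin3 corepressors and repress at the same E-box, CACGTG. Mlx is an alternative partner that takes the place of Max in pairs with Mxd1, Mxd4 and Mnt. It is also the partner of the Mondo proteins. In the myeloid lineage Myc is known from dividing precursors, and Mxd1 from cells that leave the cell cycle and mature.

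The labels were first set against lists of marker genes. Of 13 granulocyte markers with a value, 13 were 2-fold or more higher in granulocytes (9 of them 4-fold or more). Of 14 monocyte markers 14 were 2-fold or more higher in monocytes (12 of them 4-fold or more). Of all genes above background, 29.0% were 2-fold and 8.57% 4-fold or more higher in granulocytes. The shares higher in monocytes were 21.0% at 2-fold and 10.5% at 4-fold. Other marker lists differed too. Of 10 progenitor markers above background, 5 were 4-fold or more higher in monocytes, including the azurophil granule genes Mpo, Elane, Ctsg and Prtn3, and the list's summed scaled intensity was 45.4 in granulocytes and 382 in monocytes. The erythroid list summed to 8.87 in granulocytes and 2.85 in monocytes, and the lymphoid list to 10.6 in granulocytes and 21.8 in monocytes. Hoxa9 of the progenitor list and Ncr1 of the lymphoid list were not well above background on either array. The part of such cells in the results below was not tested.

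The 4 largest differences in the network ran in opposite directions. The repressor genes Mxd1 and Mxi1 and the shared partner gene Max were 4-fold or more higher in granulocytes, and Myc in monocytes. Thus 3 of the 10 genes exceeded 4-fold towards granulocytes, against 8.57% of the 15429 genes, and 1 of 10 towards monocytes, against 10.5%. At 2-fold the counts were 5 of 10, against 29.0% of genes, and 2 of 10, against 21.0%. Levels are log2 intensities relative to the 75th percentile of their array, called the scaled level, and differences are granulocyte minus monocyte. The median difference of the 10 genes was 0.91, and that of all 15429 genes 0.40.

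The scaling sets where 0 lies. Of all genes 4-fold or more apart, 45.0% were on the granulocyte side (1323 against 1614 on the monocyte side). This share was 16.1% without scaling (577 against 2997) and 24.0% with scaling by spike-in controls (762 against 2412). The median of all genes was -0.43 without scaling and -0.10 with spike-in scaling. Differences between 2 genes' differences do not move with a scaling that adds 1 constant, and they are given below where the comparison is between members.

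**Figure D1:**
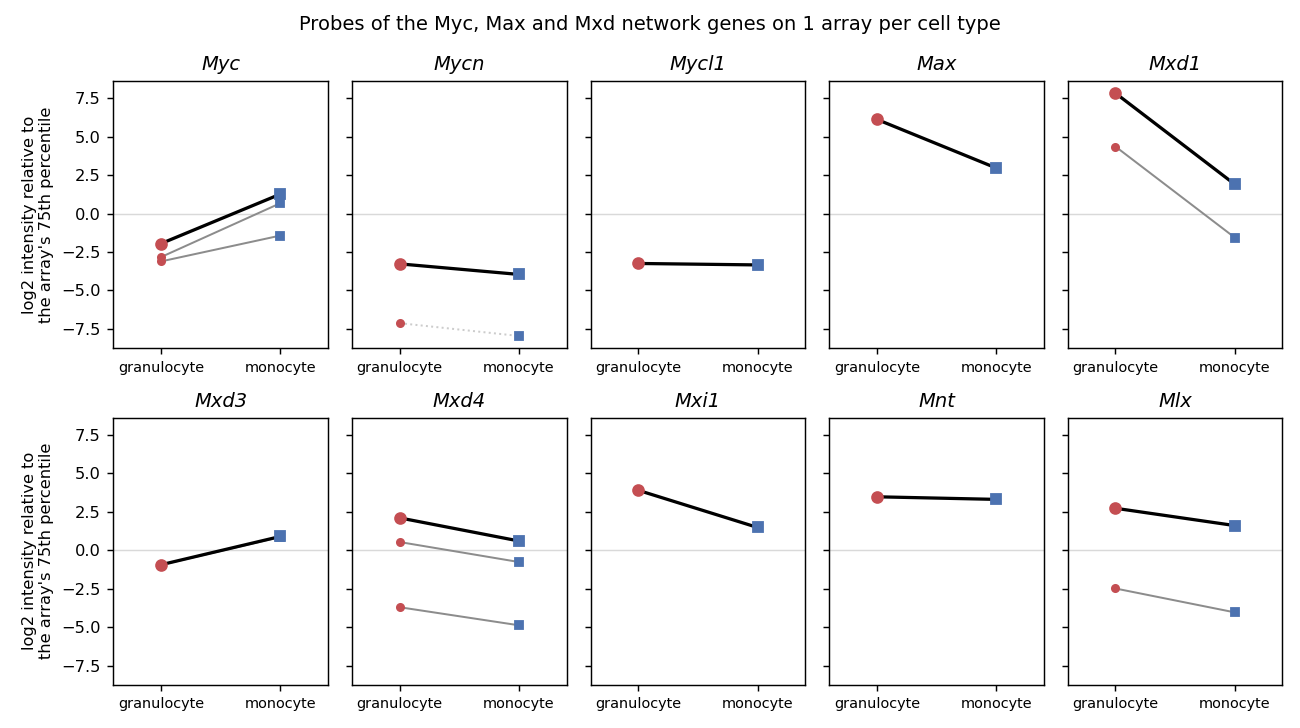
Scaled level (log2 intensity relative to the array's 75th percentile, vertical axis) of each probe of the 10 genes in granulocytes (red circles, left) and monocytes (blue squares, right), 1 array each. Black lines mark the probe that represents the gene, grey lines the other probes and the dotted line the Mycn probe not above background. Levels of different probes are not comparable with one another. The lines of Mxd1, Max and Mxi1 slope down towards monocytes and those of Myc and Mxd3 slope up.

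Among the activators, Myc alone was 4-fold or more apart. Its main probe, printed at 10 places on each array, had a mean intensity of 87.9 ± 4.70 in granulocytes and 1492 ± 81.8 in monocytes (SD over the 10 spots of 1 array, which measures spot noise only). The spots ran from 80.1 through a median of 89.0 to 95.1 in granulocytes, and from 1335 through 1524 to 1580 in monocytes. The spots of the 2 arrays did not overlap. On the scaled level this was -1.95 in granulocytes and 1.26 in monocytes, a difference of -3.21, or 9.28-fold higher in monocytes, and 3.55% of all genes had a lower difference.

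The Myc probes differed in size and shared the direction. The probe at chr15:61819528-61819587 (mouse build mm8, plus strand) had an intensity of 47.8 in granulocytes and 990 in monocytes, a difference of -3.50. The probe at chr15:61819036-61819095 had 39.2 in granulocytes and 230.1 in monocytes, a difference of -1.68, which is under 4-fold. The main probe lies between 61819627 and 61819687 on the same strand. No exon or UTR annotation is given for mm8 positions.

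**Figure D2:**
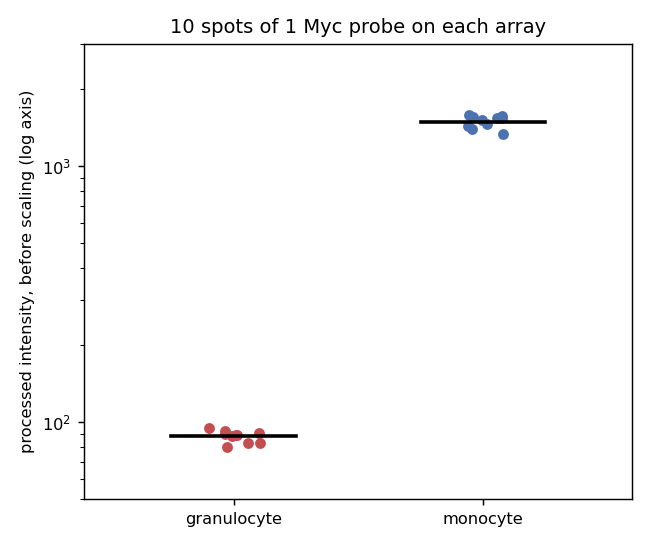
Processed intensity before scaling (vertical axis, log scale) of the 10 spots of the main Myc probe in granulocytes (red, left) and monocytes (blue, right), with the mean as a black bar. The granulocyte spots sit between 80.1 and 95.1 and the monocyte spots between 1335 and 1580. Spots of 1 array are not replicate samples.

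The paralogues of Myc were dim on both arrays. Mycn, best known from neural and embryonic tissue, had an intensity of 35.1 in granulocytes and 39.9 in monocytes (difference 0.69), at chr12:12963492-12963551. Its second probe gave 2.43 in granulocytes and 2.49 in monocytes, and no fold is given for it. Mycl1, the L-Myc gene, had 35.7 in granulocytes and 61.2 in monocytes (difference 0.09), at chr4:122504608-122504667. Both differences were within 2-fold, and they changed sign without scaling (-0.19 for Mycn and -0.78 for Mycl1). Mycl1 was also negative with quantile normalisation (-0.08), spike-in scaling (-0.45) and the deposited value table (-0.09).

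Max and Mlx, the partner genes through which the other members bind DNA, were both more than 2-fold higher in granulocytes. Max had an intensity of 23590 in granulocytes and 4827 in monocytes, by its only probe at chr12:77856136-77856195. This gave scaled levels of 6.12 in granulocytes and 2.96 in monocytes, a difference of 3.16, or 8.94-fold, and 2.85% of genes had a higher one. Mlx had an intensity of 2246 in granulocytes and 1885 in monocytes by its brighter probe at chr11:100907202-100907261, a difference of 1.12. Its dim probe gave 60.5 in granulocytes and 37.7 in monocytes, a difference of 1.55. The difference of Max exceeded that of Mlx by 2.04 on the log2 scale. Without scaling Mlx differed by 0.25 and Max by 2.29, and with spike-in scaling Mlx differed by 0.58.

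The repressors split. Mxd1 and Mxi1 exceeded 4-fold and Mxd4 exceeded 2-fold towards granulocytes, Mxd3 exceeded 2-fold towards monocytes, and Mnt differed by 0.17. For Mxd1, the probe that represents the gene had an intensity of 76852 in granulocytes and 2316 in monocytes. The second probe had 6936 in granulocytes and 210.1 in monocytes. The first 30 bases of both probes are shown, since 2 separate stretches of the gene carry the largest difference in the network.
Mxd1 probe at chr6:86612830-86612889 (mm8, minus strand): cgcgggtgaagaatgagaagcgcgtttcca
Mxd1 probe at chr6:86616391-86616450 (mm8, minus strand): ccttgcacgcaaacctcatgtaccaccttg
The 2 probes gave differences of 5.92 and 5.92, or 60.7-fold and 60.4-fold. The scaled levels of the first were 7.82 in granulocytes and 1.90 in monocytes. Among all 15429 genes, Mxd1 had the 49th highest difference.

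Mxi1 had an intensity of 5042 in granulocytes and 1730 in monocytes at chr19:53425818-53425877. Its scaled levels were 3.89 in granulocytes and 1.48 in monocytes, a difference of 2.41, or 5.33-fold. This count at 4-fold depends on the scaling: Mxi1 differed by 1.54 without scaling and 1.87 with spike-in scaling, both under 4-fold. The 3 probes of Mxd4 gave 1456, 490.2 and 26.0 in granulocytes, against 940.4, 364.4 and 21.1 in monocytes. Their differences were 1.50, 1.30 and 1.17, all higher in granulocytes. The first was under 2-fold without scaling (0.63) and with spike-in scaling (0.96).

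Mxd3 stood apart from the other Mxd genes. In the mouse it is known from dividing cells in S phase rather than from cells that mature. Its 2 probes are shown because they place the opposite difference on separate stretches of the gene.
Mxd3 probe at chr13:55335261-55335320 (mm8, minus strand): gagattaaagccaaggtgtgggagcagact
Mxd3 probe within chr13:55335514-55335687 (mm8, minus strand, 174 positions for a probe of 60 bases): agacagcttggactcttcaggcctgtcctc
The first gave an intensity of 176.6 in granulocytes and 1154 in monocytes, the second 175.3 in granulocytes and 1129 in monocytes. Their differences were -1.84 and -1.82, or 3.57-fold and 3.52-fold higher in monocytes. The call at 4-fold turned with the scaling: it was -2.71 without scaling, -2.38 with spike-in scaling and -2.02 in the deposited value table.

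Mnt, the repressor that most tissues express, was bright on both arrays and differed little. Its intensity was 3767 in granulocytes and 6133 in monocytes, at chr11:74661608-74661667, with scaled levels of 3.47 in granulocytes and 3.30 in monocytes. Its difference was 0.17, and it was -0.70 without scaling, -0.28 with quantile normalisation, -0.38 with spike-in scaling and -0.02 in the deposited value table.

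Set against one another, the differences of members were far apart. That of Mxd1 exceeded that of Myc by 9.14 on the log2 scale, a 563-fold change of 1 gene relative to the other. Max exceeded Myc by 6.37, Mxi1 exceeded Myc by 5.63 and Mnt exceeded Myc by 3.38. Within the Mxd family, Mxd1 exceeded Mxd3 by 7.76 and Mxd4 by 4.42. Over all 11 settings of the processing the gap between Mxd1 and Myc ran between 8.34 and 9.14. As a measure of error within an array, the scanner software gave each bright spot an error of about 10% of its intensity, which corresponds to 0.20 on the difference. Across 5330 genes with several measured probes, the median SD between the probes of a gene was 0.23.

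**Figure D3:**
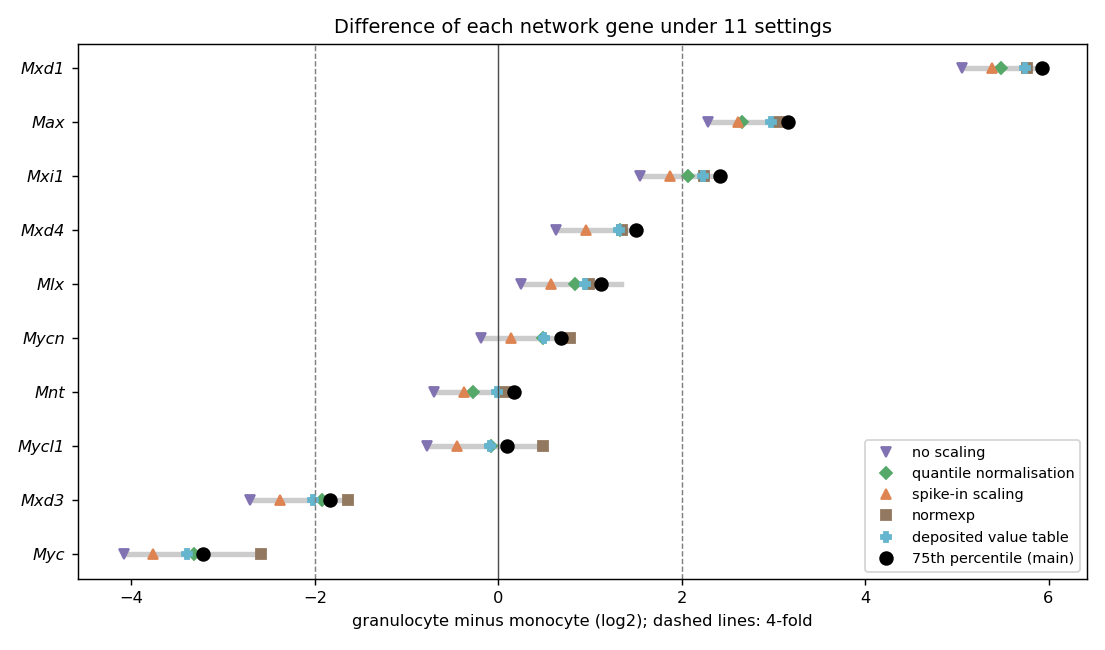
Difference (granulocyte minus monocyte, log2, horizontal axis) of each network gene with the 75th percentile scaling (black circles) and 5 other settings (coloured marks), with grey bars for the range over all 11 settings and dashed lines at 4-fold. Mxd1, Max, Mxi1, Mxd4 and Mlx stay right of 0 and Mxd3 and Myc left of 0, while Mycn, Mnt and Mycl1 lie on both sides.

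The sequences just before the starts of the members were read from RefSeq (build GRCm38.p6). Of the 10 genes, 9 had 11 promoter entries, and Myc had none. Shown are 250 bases before the start of the gene with the highest difference (Mxd1), the one with the lowest among those with an entry (Mxd3), the shared partner Max, and Mxd4 as a member of the same family that holds an E-box. Capitals mark the E-box CACGTG and the CCAAT box (CCAAT, or ATTGG on the other strand).
Mxd1, chr6:86669160-86669409, minus strand: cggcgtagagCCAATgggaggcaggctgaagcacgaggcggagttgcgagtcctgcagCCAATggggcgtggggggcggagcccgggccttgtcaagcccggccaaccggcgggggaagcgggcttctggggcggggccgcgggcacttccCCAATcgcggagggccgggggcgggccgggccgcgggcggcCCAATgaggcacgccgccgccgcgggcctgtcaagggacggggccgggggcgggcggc
Mxd3, chr13:55329732-55329981, minus strand: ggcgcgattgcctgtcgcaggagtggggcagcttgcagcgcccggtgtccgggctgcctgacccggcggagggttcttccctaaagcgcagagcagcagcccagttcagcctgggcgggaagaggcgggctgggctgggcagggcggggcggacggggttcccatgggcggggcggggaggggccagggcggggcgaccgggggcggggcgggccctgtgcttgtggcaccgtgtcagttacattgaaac
Max, chr12:76962249-76962498, minus strand: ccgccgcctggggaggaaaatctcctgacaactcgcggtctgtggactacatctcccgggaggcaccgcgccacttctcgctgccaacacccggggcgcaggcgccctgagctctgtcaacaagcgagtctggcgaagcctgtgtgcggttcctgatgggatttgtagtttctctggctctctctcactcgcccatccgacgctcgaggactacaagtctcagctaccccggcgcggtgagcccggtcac
Mxd4, chr5:34187711-34187960, minus strand: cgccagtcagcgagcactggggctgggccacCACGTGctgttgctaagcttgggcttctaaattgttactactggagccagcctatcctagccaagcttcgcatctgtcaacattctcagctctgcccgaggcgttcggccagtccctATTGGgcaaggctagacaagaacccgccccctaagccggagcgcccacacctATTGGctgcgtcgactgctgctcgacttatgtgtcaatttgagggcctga
The E-box was found in 3 of the 11 windows, those of Mxd4, Mnt and Mlx (219, 123 and 40 bases before the start), and in 6.02% of the 32851 windows of all genes. The windows of Mxd1, Mxd3, Max and Mxi1 held no such letters. That of Mxd1 held 4 CCAAT boxes, at 240, 192, 99 and 58 bases before the start. The CCAAT box was found in 3 of the 11 windows, those of Mxd1, Mxd4 and Mlx. Of all windows 33.8% held at least 1 CCAAT box and 0.840% held at least 4, and the window of Mxd1 had a GC content of 78.4%, against a median of 52.4%. The GC box (GGGCGG, either strand) was found in 9 of the 11 windows and in 32.7% of all. Matches of different motifs did not overlap in the windows shown, while some GC boxes overlapped one another. The CCAAT and GC boxes were chosen after the sequences were seen, and a match of letters is no evidence that a factor binds.

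Genes that MYC is known to activate were mostly higher in monocytes. Of 39 listed genes with a value, 31 exceeded 2-fold towards monocytes, 23 of them 4-fold, 1 exceeded 2-fold towards granulocytes, and 7 were within 2-fold. The median difference was -2.57, against 0.40 over all genes. Of all genes, 21.0% exceeded 2-fold and 10.5% exceeded 4-fold towards monocytes, and 29.0% exceeded 2-fold towards granulocytes. The lowest were Nme2, a nucleoside diphosphate kinase gene (-4.61), Fbl, the methyltransferase of nucleolar RNA (-3.97), Apex1, a DNA repair nuclease gene (-3.95), Wdr43, a ribosome assembly gene (-3.62), and the spermidine synthase gene Srm (-3.57). Ldha, lactate dehydrogenase, was the exception at 1.65, with an intensity of 55522 in granulocytes and 32383 in monocytes. It was under 2-fold without scaling, where 0 listed genes exceeded 2-fold towards granulocytes (9.90% of all genes) and 35 towards monocytes (35.5%).

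Fbl had an intensity of 1781 in granulocytes and 50943 in monocytes, and Srm 116.7 in granulocytes and 2542 in monocytes. Other members of the list, chosen after their values were seen, show the spread. The polyamine enzyme gene Odc1, a classical target, differed by -2.21, and the kinase gene Cdk4 by -3.35, while the cyclin gene Ccnd2 gave 0.05. The mitochondrial one-carbon gene Shmt2 gave -3.17 and its cytosolic counterpart Shmt1 0.35. The probes of Cad, the enzyme that opens pyrimidine synthesis, ran between -2.85 and 0.23, so that the value of this gene depends on the probe. Npm1 and Ptma have many processed copies in the genome, with which their probes may share signal.

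The list of genes repressed by MYC lay on the other side. Of 17 above background (Gas1 was not), 9 exceeded 2-fold towards granulocytes, 5 of them 4-fold, and 3 exceeded 2-fold towards monocytes, 1 of them 4-fold. The median was 1.14, against 0.40 over all genes, of which 29.0% exceeded 2-fold and 8.57% exceeded 4-fold towards granulocytes. Towards monocytes these shares were 21.0% and 10.5%. Without scaling, 5 exceeded 2-fold (9.90% of all genes) and 2 exceeded 4-fold (3.74%) towards granulocytes. Towards monocytes 4 then exceeded 2-fold (35.5% of all genes) and 3 exceeded 4-fold (19.4%). With spike-in scaling 3 exceeded 4-fold each way, against 4.94% of all genes towards granulocytes and 15.6% towards monocytes. The highest were Thbs1, thrombospondin (3.26), the stress response gene Gadd45a (3.12), the integrin gene Itgb2 (2.52) and Cebpd, a myeloid transcription factor gene (2.07). Gadd45a had an intensity of 25087 in granulocytes and 5285 in monocytes. Cdkn2b, which encodes the CDK inhibitor p15, was not well above background in monocytes and was at least 6.32-fold higher in granulocytes (32.7 in granulocytes, 8.96 in monocytes). That bound holds for the 75th percentile scaling: it was 3.46-fold without scaling and 2.19-fold after normexp background correction, both under 4-fold. Without scaling, Itgb2 (1.65) and Cebpd (1.19) were under 4-fold too. Against the median went the CDK inhibitor genes Cdkn1a (-3.46) and Cdkn2c (-1.75) and the factor gene Cebpa (-1.68). Cdkn1a had 52.7 in granulocytes and 1063 in monocytes. The integrin and Cebpd genes are also genes of mature granulocytes.

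Cofactors and regulators of the network had a median difference of 0.02, against 0.40 over all genes. Of 30 such genes, 5 exceeded 2-fold towards granulocytes, against 29.0% of all genes, and 10 towards monocytes, against 21.0%. At 4-fold the counts were 0 towards granulocytes, against 8.57% of all genes, and 5 towards monocytes, against 10.5%. Among the lowest were Skp2, a ubiquitin ligase subunit gene (-3.37), the Myc-binding adaptor gene Bin1 (-2.45), the acetyltransferase gene Kat2a (-2.37) and the deubiquitinase gene Usp36 (-2.06). In granulocytes Skp2 (16.4), Usp36 (19.0) and Kat2a (33.8) were dim, where the lowest signal above background was 9.46. The Skp2 probes gave -3.37 and -2.16. Among the highest were the corepressor gene Ncor1 (1.92), the chromatin adaptor gene Wdr5 (1.39), the scaffold gene Trrap (1.05) and the acetyltransferase gene Kat5 (1.02). Only 1 of the 30 exceeded 2-fold towards granulocytes without scaling (9.90% of all genes), and 1 with spike-in scaling (14.5%). Towards monocytes the counts were then 14 (35.5% of all genes) and 12 (29.3%). The Ncor1 probes ran between 0.62 and 1.97. The corepressor scaffolds that the Mxd proteins bind, named after their values were seen, differed by 0.25 (Sin3a) and 0.86 (Sin3b).

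Genes of the cell cycle were on the same side as Myc and Mxd3. Of 15 such genes 15 exceeded 2-fold towards monocytes, against 21.0% of all genes, and 5 exceeded 4-fold, against 10.5%. Their median was -1.76, against 0.40 over all genes, and they lay between -3.44 (Mcm2) and -1.10 (Plk1), and the list's summed scaled intensity was 102.2 in granulocytes and 352.6 in monocytes. All 15 were well above background on both arrays. The 3 Tyms probes ran between -2.87 and 0.91. With the mean of a gene's probes, 14 of the 15 exceeded 2-fold towards monocytes, against 20.2% of all genes. At 4-fold 4 did, against 9.37%. Progenitor markers were higher in monocytes too, as given above. The part of dividing or immature cells in the differences of Myc, Mxd3 and the activated genes was not tested.

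**Figure D4:**
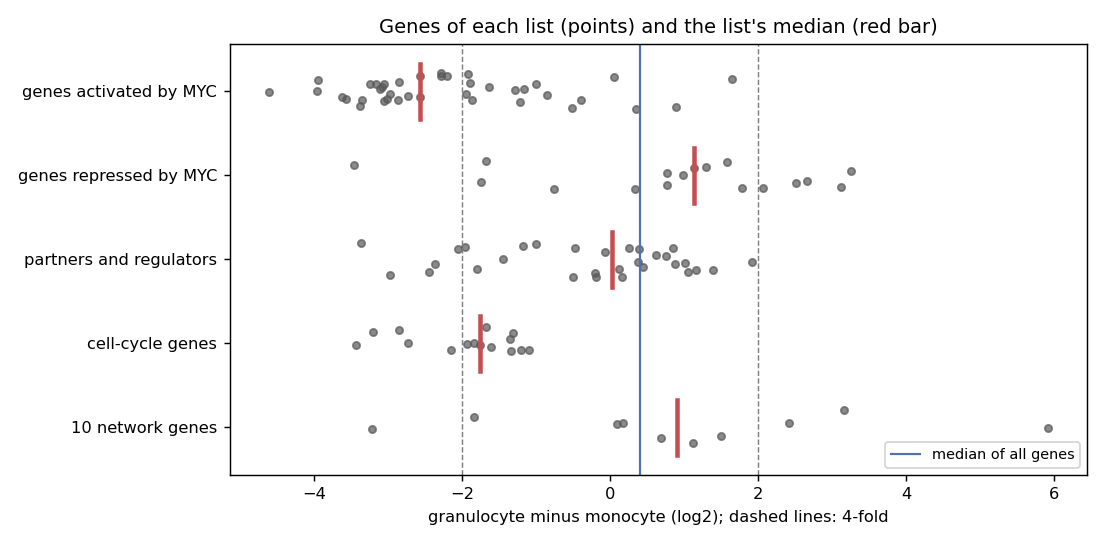
Difference (granulocyte minus monocyte, log2, horizontal axis) of every gene above background (points) in 4 gene lists and of the 10 network genes, with each median as a red bar, the median of all genes as a blue line and dashed lines at 4-fold. The genes activated by MYC and the cell-cycle genes have medians of -2.57 and -1.76, those repressed by MYC 1.14.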

How the data were processed

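The authors' scanner files hold, per the file headers, an intensity for each spot from Agilent Feature Extraction 10.5.1.1, after background subtraction and detrending inside each array, on a linear scale and not normalised between the arrays. The authors' deposited value table is on a log2 scale. It differs from log2 of the scanner intensity by a constant, -0.24 on the granulocyte and -0.92 on the monocyte array. Its column medians are 4.80 and 4.80. No source used here states how the constants were set. Probe positions are in build mm8.

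Control spots were left out, as were flagged outliers (granulocytes 143, monocytes 103). No spot was saturated. Each value was log2 of the processed signal minus the array's 75th percentile (339.4 for granulocytes and 620.9 for monocytes), averaged over the spots of a probe. Signal was well above background for 63.9% of probes in granulocytes and 68.2% in monocytes. Probes were named through RefSeq accessions of GRCm38.p6 (24085 probes), current symbols (6234) or single older ones (2386). Another 8058 were unnamed, and 411 matched several genes and were left out of gene counts. Each gene took the probe measured above background on more arrays or, where equal, the brighter one. Where 1 array was not above background, the difference is a lower bound against the higher of that array's lowest signal above background and the probe's own value.

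Named from the lists are up to 5 genes each way with the largest differences of at least 2-fold, and up to 4 that differ by 2-fold against their list's median, beside every member. Some genes that this rule names are not reported here. The members and lists were chosen with earlier results of these data known, among them that genes of ribosome assembly and replication were lower in granulocytes, so that the activated and cell-cycle lists are no independent support. No test was possible. The calculation was tested on simulated data. Alternatives were other scalings, normexp background correction (limma 3.58.1, offset 50), the deposited table, other filters and rules for several probes, and other fold sizes.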

Additional observations from a re-analysis of the deposited data

How the results depend on the processing

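The number of arrays limits every statement here, and the alternatives say nothing of the spread between mice. No paired analysis was possible because each cell type had 1 array. The 4 members at least 4-fold apart kept their direction under all 10 alternatives that give a difference, as did Mxd3, Mxd4 and Mlx of the other 6. Scalings that add 1 constant could not have turned any of these, since the largest shift was 0.87. The brightest-probe rule and the filter for probes above background on both arrays left every member's difference unchanged. Keeping outlier spots hardly moved it. The mean of probes could not have turned a sign of these genes either, since all measured probes of each shared 1 direction. That left quantile normalisation and normexp as alternatives that could have turned a sign. The members at least 4-fold higher in monocytes were 2 without scaling, with spike-in scaling and in the deposited value table, Mxd3 joining Myc. The shares of all genes were then 19.4%, 15.6% and 12.0%. Without scaling and with spike-in scaling, Mxi1 fell under 4-fold and 2 were left on the granulocyte side. On that side the shares of all genes were 3.74% and 4.94%. At 2-fold the counts were 5 towards granulocytes and 2 towards monocytes, and by construction they could not be lower than at 4-fold. The median of the members became 0.034 without scaling, 0.67 with quantile normalisation and 0.36 with spike-in scaling. That of activated genes became -3.45 without scaling, -3.12 with spike-in scaling and -2.02 after normexp (the cause was not tested). That of repressed genes became 0.27, 0.73 and 0.59 without scaling, with quantile normalisation and with spike-in scaling, and that of cofactors and regulators -0.85, -0.25 and -0.52. Past 4-fold towards monocytes without scaling were 14 of 15 cell-cycle genes (5 with scaling) and 9 of 30 cofactors and regulators (also 5). Of all genes 19.4% were, against 10.5% with scaling. After normexp 4 of the 15 and 2 of the 30 were, against 5.76% of all genes. Myc ran between -4.09 and -2.58. Over all genes, normexp gave 869 genes past 4-fold towards granulocytes and 889 towards monocytes. The dim probes of Mycn, Mycl1, Mlx and Mxd4 limit what can be said of them.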

Other observations

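Probes outside the naming rule whose annotation mentions the network gave a few further values. One probe, which was left unnamed, is for a cDNA described as Max interacting protein 1, another name of Mxi1. It had an intensity of 70.2 in granulocytes and 33.6 in monocytes, a difference of 1.94. Its listed coordinates descend, which is read as the minus strand. The Mxi1 probe, with a difference of 2.41, lies on the plus strand. Whether the unnamed probe measures Mxi1 RNA was not tested, so its value is no second reading of that gene. The probe of Mycs, a Myc-like gene on the X chromosome, had 29.9 in granulocytes and 23.2 in monocytes, a difference of 1.24 in a dim range. Mga, the large Max partner with its own T-box, differed by 0.38 and 0.02 by the 2 probes above background, and the other probe was above background on neither array.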
